A study of Homo sapiens with 24 samples.

Results

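The genes described here are the plasma membrane and lysosomal amino acid carriers of human embryonic stem cells. The rule uses names and no measured value. Every gene of the array annotation whose symbol is SLC1A, SLC7A, SLC36A, SLC38A or SLC43A followed by a number was taken, together with SLC3A2, where a probe set named that gene and no other. This gave 37 genes with 88 probe sets, of 19775 genes with such a probe set. SLC38A12 is listed in RefSeq as the gene formerly called TMEM104.

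The study asked how feeder cells and blocked lactate transport bear on the metabolism of human embryonic stem cells, measured with Affymetrix U133 Plus 2.0 arrays on total RNA. In its inhibitor part, the lines H1, H9 and HSF1 were each grown feeder-supported (FS) on mouse embryonic fibroblasts (MEFs) or feeder-free (FF), and each culture received AZD3965 or its vehicle DMSO for 5 days. AZD3965 is a small-molecule inhibitor of the lactate carrier MCT1 and was given at 250 nM. The 4 groups were FS with inhibitor, FS with DMSO, FF with inhibitor and FF with DMSO, with 1 array per line and so 3 arrays a group. In its medium part, feeder-free H9 and HSF1 cells received medium conditioned by MEFs (CM) or unconditioned medium (UM), with 3 biological replicates in each of the 4 groups. The sample labels give 5 days for this treatment and the design text gives 24 hours. All groups are cultures of established embryonic stem cell lines, and the labels do not say whether feeder cells were removed before RNA was isolated from FS cultures.

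Values are the deposited log2 RMA values. Values of an inhibitor-part group are given in the order H1, H9, HSF1, and those of a medium-part group in the order of replicates 1, 2 and 3. A difference is the fitted log2 difference, a gene was called when limma's Benjamini-Hochberg adjusted p over all tested genes was below 0.05, and the words rose and fell are used of called genes. Probe sets differ in sensitivity, so the levels of different genes are not compared. Of the 37 genes, 35 exceeded log2 5 on at least 3 of the 12 arrays in both parts and were tested. SLC38A11, of the SNAT family, and SLC7A13, a light chain, did not. SLC38A11 lay between 3.61 and 5.02 over the 24 arrays, and SLC7A13 between 3.90 and 4.82.

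Amino acids enter cells through carriers that divide the work by substrate and by driving force. The heavy chain SLC3A2 (CD98) brings light chains such as SLC7A5 to the plasma membrane, where they exchange large neutral or cationic amino acids, or cystine for glutamate in the case of SLC7A11. Sodium-coupled SLC1 and SLC38 carriers accumulate glutamate, glutamine and alanine that such exchangers use, SLC7A1 to SLC7A3 bring in arginine and lysine, and SLC36A1 and SLC38A9 act at the lysosome, where amino acids are sensed by mTORC1. Many of these genes are known targets of the amino acid response through ATF4, and SLC7A11 and its partners are known targets of the antioxidant factor NRF2.

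The promoters of 4 genes on which the results turn are shown, each from 250 bases before to 50 bases after a RefSeq transcript start on GRCh38.p14. For SLC1A3 and SLC7A5 this is the start of the gene. For SLC3A2 and SLC38A4 it is a start inside the gene, which begins at 62856109 for SLC3A2 and at 46832431 for SLC38A4. SLC3A2 (chr11:62881449-62881748, plus strand) and SLC7A5 (chr16:87869458-87869757, minus strand) encode the heavy chain and its best known light chain. SLC1A3 (chr5:36596338-36596637, plus strand) was lower in conditioned medium in both lines, and SLC38A4 (chr12:46825948-46826247, minus strand) was below log2 5 on every array of FS cells. Capitals mark matches, on either strand, to TGATGNAA (the C/EBP-ATF response element), CACGTG (the E-box) or TGACNNNGC (the core of the antioxidant response element), where N is any base.
SLC3A2: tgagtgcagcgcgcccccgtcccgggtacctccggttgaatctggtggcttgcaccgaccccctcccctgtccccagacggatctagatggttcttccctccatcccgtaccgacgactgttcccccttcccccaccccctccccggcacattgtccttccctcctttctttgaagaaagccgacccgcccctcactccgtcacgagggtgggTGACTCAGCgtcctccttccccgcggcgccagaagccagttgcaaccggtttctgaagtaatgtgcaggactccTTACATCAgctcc
SLC7A5: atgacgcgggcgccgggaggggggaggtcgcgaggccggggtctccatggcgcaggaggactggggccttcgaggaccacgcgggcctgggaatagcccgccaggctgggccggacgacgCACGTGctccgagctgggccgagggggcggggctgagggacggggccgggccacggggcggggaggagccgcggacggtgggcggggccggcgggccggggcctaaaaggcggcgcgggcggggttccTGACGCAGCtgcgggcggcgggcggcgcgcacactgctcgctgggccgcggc
SLC1A3: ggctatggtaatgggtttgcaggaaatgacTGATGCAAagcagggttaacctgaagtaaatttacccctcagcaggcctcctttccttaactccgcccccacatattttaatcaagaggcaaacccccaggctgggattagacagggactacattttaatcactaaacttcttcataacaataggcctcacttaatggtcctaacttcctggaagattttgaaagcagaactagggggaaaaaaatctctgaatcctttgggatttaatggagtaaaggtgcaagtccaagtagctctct
SLC38A4: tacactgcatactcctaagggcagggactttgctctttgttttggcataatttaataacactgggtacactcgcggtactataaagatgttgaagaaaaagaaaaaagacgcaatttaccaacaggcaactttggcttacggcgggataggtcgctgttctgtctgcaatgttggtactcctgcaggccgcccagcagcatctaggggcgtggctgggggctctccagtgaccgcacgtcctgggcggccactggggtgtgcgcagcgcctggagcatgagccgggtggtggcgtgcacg
Around its internal start, SLC3A2 held the response element and, upstream of that start, the antioxidant core. SLC7A5 held an E-box and the antioxidant core, and SLC1A3 held the response element. SLC38A4 held no match to these motifs in the window shown. Promoters of 29 of the 37 genes were found in the RefSeq table. TGATGNAA was in 4 of them (13.8%: SLC1A3, SLC38A1, SLC3A2 and SLC7A1), against 3.67% of all 27305 promoters of the same length. CACGTG was in 5 (17.2%: SLC1A7, SLC38A5, SLC38A7, SLC43A1 and SLC7A5), against 7.43%, and TGACNNNGC in 5 (17.2%: SLC3A2, SLC7A1, SLC7A5, SLC7A6 and SLC7A7), against 13.6%. A match describes these letters only.

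The arrays of FS cells differed from the others as a whole. The interquartile range of all log2 values on an array was 2.45 to 2.85 in FS cultures, lowest on both HSF1 arrays, and 3.08 to 3.30 in FF cultures. Of all named probe sets with a mean below log2 6.5, a level picked after the values were seen, 75% were higher in FS than in FF cells with DMSO, against 25.6% of those at or above it. The 7 pluripotency genes checked of 9 listed, which mark embryonic stem cells, were above log2 5 on every array. Their summed level was log2 15.04 to 15.33 in FS cells with DMSO and 15.51 to 15.56 in FF cells with DMSO. The 18 fibroblast genes, of which 16 to 18 were above log2 5 in FS and 15 to 16 in FF cells with DMSO, summed to log2 13.1 to 14.2 and 12.6 to 13.5, and 7 of them rose in FS cells with DMSO while 0 fell. With the inhibitor 4 rose and 3 fell. By line, the sums with DMSO were 14.20, 13.21 and 13.10 in FS cells, against 13.53, 12.65 and 13.19 in FF cells. With the inhibitor they were 14.53, 13.48 and 13.22, against 13.47, 13.19 and 13.60, so HSF1 was lower with feeders under both treatments. Genes high in both cultures weigh most in the sum, such as SPARC, with means of 11.30 in FS and 11.24 in FF cells with DMSO. The feeders are mouse cells, while the probe sets are annotated to human genes. How far these sums measure feeder RNA was not tested. Of the 7 pluripotency genes, 4 fell with DMSO and 6 with the inhibitor, and 0 rose. In RNA from whole cultures, fewer cells of a type and less RNA per cell cannot be told apart.

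Between FS and FF cells the transporter genes were called about as often as all genes. With DMSO, 14 of the 35 genes tested fell in FS cells and 2 rose, and their median difference was -0.441, against -0.189 over all 17218 genes tested. With the inhibitor, 12 fell and 4 rose, with a median of -0.362 against -0.198. The share called, 45.7% in each, was near that of all genes tested, 39.3% with DMSO (15.2% higher, 24.1% lower) and 47.1% with the inhibitor (19.3% higher, 27.8% lower). Tested probe set by probe set, 36 of 78 were called with DMSO and 35 with the inhibitor, where 39% and 46.2% of all 33411 probe sets were called. The called probe sets belonged to 22 and 21 genes. The arrays of the groups did not overlap for 18 of the 35 genes with DMSO, where 52.3% of all genes tested did not overlap, and for 20 with the inhibitor, against 56%. The inhibitor and DMSO comparisons use different arrays of the same 3 lines, and 13 calls, 11 lower and 2 higher, were shared (81.2% of each 16).

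Among the glutamine and neutral amino acid carriers of the SNAT family (SLC38), 7 of 10 tested genes fell in FS cells with DMSO and 0 rose, where 24.1% of all genes fell and 15.2% rose. With the inhibitor 5 fell and 1 rose, where 27.8% of all genes fell and 19.3% rose. SLC38A4, which takes up neutral and cationic amino acids, had log2 values of 4.29, 3.60 and 3.50 in FS cells, against 7.40, 7.13 and 5.20 in FF cells. With the inhibitor it had 3.81, 3.96 and 3.13 in FS cells and 7.004, 6.74 and 4.86 in FF cells. All 6 FS arrays lay below log2 5 and below every FF array, and 5 of the 6 FF arrays lay above it. The gene thus passed the low-value filter only through FF cells, so that it stands in the counts of genes that fell, but its values are given as a description with no fold or p. Its second probe set, with a mean of log2 4.08, differed by -0.084 with DMSO.

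SLC38A6, a less studied member of the same family, had 7.31, 6.68 and 5.68 in FS cells, against 7.85, 7.55 and 7.87 in FF cells, and its FS and FF arrays did not overlap. It fell by 1.20 (SE 0.33, adjusted p = 0.0211), most in HSF1, where the 3 line differences were -0.54, -0.87 and -2.19. SLC38A9, the arginine-sensing lysosomal carrier that signals to mTORC1, had 9.19, 9.38 and 8.35 in FS cells, against 9.95, 9.99 and 10.11 in FF cells. The groups were apart, and its difference was -1.04 (SE 0.30, adjusted p = 0.0238). With the inhibitor, SLC38A6 differed by -1.01 (SE 0.33, adjusted p = 0.031) and SLC38A9 by -0.88 (SE 0.30, adjusted p = 0.0346).

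The sodium-coupled glutamine and alanine carriers SLC38A1 and SLC38A2 had smaller differences. SLC38A1 had 11.86, 11.88 and 11.07 in FS cells, against 12.26, 12.34 and 12.35 in FF cells, a difference of -0.72 (SE 0.24, adjusted p = 0.0365). SLC38A2, which cells raise when amino acids are scarce, had 12.84, 12.75 and 12.43 in FS cells, against 13.15, 13.19 and 13.26 in FF cells, a difference of -0.53 (SE 0.18, adjusted p = 0.0407). For both genes each FS array was below every FF array with DMSO. With the inhibitor SLC38A1 fell again, with 11.66, 11.67 and 10.48 in FS cells and 12.12, 11.93 and 11.97 in FF cells and a difference of -0.73 (SE 0.24, adjusted p = 0.0295). SLC38A2 then had 12.77, 12.54 and 11.95 in FS cells and 12.74, 12.64 and 12.97 in FF cells, groups that overlapped, and its difference of -0.36 (SE 0.18, adjusted p = 0.109) did not pass. SLC38A5, a glutamine carrier that also moves histidine, differed by -0.67 (SE 0.22, adjusted p = 0.0352) with DMSO and -0.20 (SE 0.22, adjusted p = 0.433) with the inhibitor, and SLC38A12 by -0.58 (SE 0.21, adjusted p = 0.0474) and -0.63 (SE 0.21, adjusted p = 0.031). SLC38A3, a glutamine carrier of liver and brain, had 6.21, 6.53 and 7.11 in FS cells and 5.89, 6.19 and 6.15 in FF cells with the inhibitor and rose by 0.54 (SE 0.19, adjusted p = 0.0356), while its difference of 0.45 with DMSO did not pass (adjusted p = 0.0686). The lysosomal glutamine exporter SLC38A7 and SLC38A10 were not called, with -0.39 and -0.33 with DMSO.

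**Figure D1:**
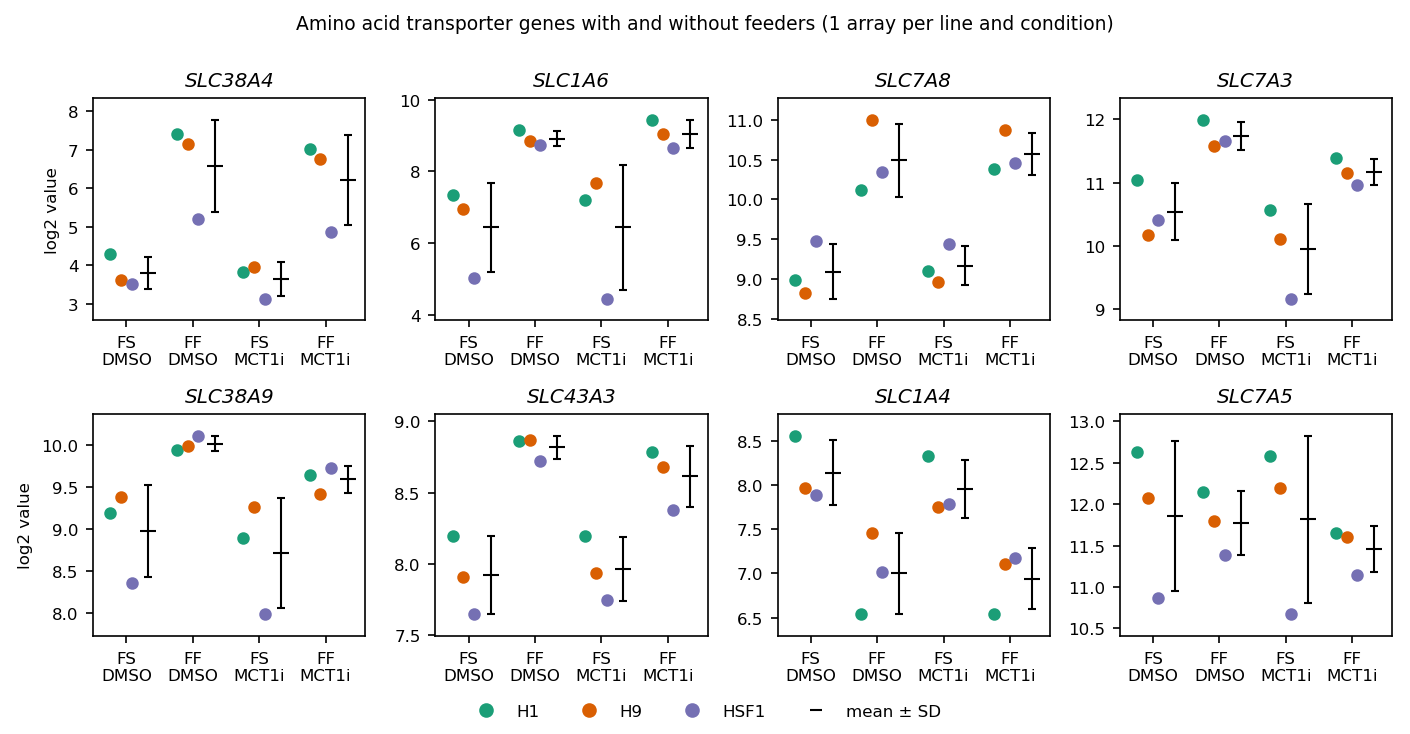
Log2 value (vertical axis, own range in each panel) of 8 transporter genes in feeder-supported (FS) and feeder-free (FF) cells with DMSO or the MCT1 inhibitor (MCT1i). Each point is 1 array, coloured by line, and bars are mean ± SD of the 3 lines. FS arrays of SLC38A4, SLC1A6, SLC7A8, SLC7A3, SLC38A9 and SLC43A3 lie below the FF arrays of the same treatment, those of SLC1A4 above, and those of SLC7A5 on both sides.

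The glutamate carriers did not move as 1 group. SLC1A6, a high-affinity carrier best known from Purkinje cells, had 7.34, 6.96 and 5.03 in FS cells, against 9.14, 8.86 and 8.73 in FF cells, and with the inhibitor 7.21, 7.68 and 4.46 in FS cells and 9.44, 9.05 and 8.66 in FF cells. Every FS array was below every FF array, and HSF1 was lowest. It fell by 2.47 with DMSO (SE 0.48, adjusted p = 0.00653) and differed by -2.60 (SE 0.48, adjusted p = 0.00455) with the inhibitor. SLC1A2, the main glutamate carrier of astrocytes, had 7.36, 7.93 and 8.35 in FS cells, against 7.21, 7.23 and 7.44 in FF cells, which overlapped, and with the inhibitor 7.67, 7.66 and 8.54 in FS cells and 7.10, 7.19 and 7.28 in FF cells, which did not. It rose by 0.58 (SE 0.21, adjusted p = 0.0485) and 0.76 (SE 0.21, adjusted p = 0.0185), read from a probe set whose suffix marks possible cross-hybridisation. Its probe set of second highest mean ran the other way, at -0.24 and -0.61, and the DMSO call of SLC1A2 was lost in 8 of 10 other settings. SLC1A7, known from the retina, had 5.94, 6.10 and 6.99 in FS cells and 5.55, 5.86 and 5.23 in FF cells with the inhibitor and rose by 0.79 (SE 0.25, adjusted p = 0.0276). SLC1A1, which also carries cysteine, was low on the 2 FS arrays of HSF1 alone. It had 8.49, 8.42 and 5.30 in FS cells, against 8.50, 7.89 and 7.90 in FF cells, and its difference of -0.69 did not pass (adjusted p = 0.339). SLC1A3, the GLAST of glia, was not called, at -0.38 with DMSO and 0.056 with the inhibitor.

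The closely related neutral carriers SLC1A4 and SLC1A5 were called in opposite directions with DMSO. SLC1A4, which exchanges alanine, serine and cysteine, had 8.56, 7.97 and 7.89 in FS cells, against 6.54, 7.46 and 7.01 in FF cells, and with the inhibitor 8.33, 7.76 and 7.78 in FS cells and 6.54, 7.11 and 7.17 in FF cells. It was higher with feeders in all 3 lines under both treatments and rose by 1.14 (SE 0.30, adjusted p = 0.0175) with DMSO and 1.02 (SE 0.30, adjusted p = 0.0208) with the inhibitor. All 5 of its probe sets were higher in FS cells. Those with means of log2 6.44, 5.40 and 5.22 lie below log2 6.5. At that level 75% of all named probe sets were higher in FS cells with DMSO. The probe set used for SLC1A4 also carries the suffix that marks possible cross-hybridisation. SLC1A5, the glutamine exchanger, had 8.56, 8.82 and 8.39 in FS cells, against 9.002, 9.999 and 9.03 in FF cells. Its groups did not overlap and it fell by 0.75 (SE 0.24, adjusted p = 0.0327). With the inhibitor it had 9.01, 8.82 and 8.49 in FS cells and 9.02, 9.88 and 9.01 in FF cells, which overlapped, and a difference of -0.53 (SE 0.24, adjusted p = 0.0854).

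SLC3A2 and its light chains SLC7A5 and SLC7A11 were not called between FS and FF cells. SLC3A2 had 11.02, 10.59 and 9.72 in FS cells, against 10.63, 10.50 and 10.30 in FF cells. SLC7A5, the leucine exchanger LAT1, had 12.62, 12.08 and 10.87 in FS cells, against 12.15, 11.79 and 11.38 in FF cells. SLC7A11, the cystine importer xCT, had 10.64, 10.47 and 9.57 in FS cells, against 10.19, 10.71 and 10.62 in FF cells. For these 3 genes the groups overlapped and HSF1 had the lowest FS value. Differences with DMSO were -0.034 for SLC3A2 (95% interval -0.62 to 0.55), 0.083 for SLC7A5 (-0.47 to 0.64) and -0.28 for SLC7A11 (-1.13 to 0.58). By line, SLC3A2 differed by 0.39, 0.091 and -0.58, SLC7A5 by 0.48, 0.29 and -0.51 and SLC7A11 by 0.45, -0.24 and -1.05, so H1 was above 0 and HSF1 below 0 for each. With the inhibitor SLC7A5 had 12.58, 12.20 and 10.67 in FS cells and 11.65, 11.60 and 11.14 in FF cells, and line differences of 0.93, 0.60 and -0.47. Without the FS arrays of HSF1, SLC7A5 was called, at 0.40 (SE 0.10, adjusted p = 0.0127) with DMSO and 0.75 (SE 0.10, adjusted p = 0.00111) with the inhibitor. Only HSF1 lay below 0 for SLC7A5, so leaving out these arrays removes the opposing values by construction. FS cells are then represented by H1 and H9 alone, and the share of all genes called in this setting is not given.

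Of the 7 light chains tested, SLC7A6 and SLC7A8 fell under both treatments. SLC7A8 (LAT2), an exchanger of neutral amino acids, had 8.99, 8.82 and 9.47 in FS cells, against 10.12, 11.001 and 10.35 in FF cells, and with the inhibitor 9.10, 8.96 and 9.44 in FS cells and 10.38, 10.88 and 10.46 in FF cells. Here HSF1 was the highest FS line, the groups did not overlap, and the differences were -1.40 (SE 0.27, adjusted p = 0.00619) and -1.41 (SE 0.27, adjusted p = 0.00505). SLC7A6, which exchanges cationic for neutral amino acids, differed by -0.85 (SE 0.30, adjusted p = 0.0442) and -0.87 (SE 0.30, adjusted p = 0.0362). SLC7A7, SLC7A9 and SLC7A10 were not called, with differences of -0.14, 0.58 and -0.028 with DMSO.

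Among the cationic carriers, SLC7A3 had 11.04, 10.17 and 10.41 in FS cells, against 11.996, 11.58 and 11.66 in FF cells, and with the inhibitor 10.57, 10.11 and 9.17 in FS cells and 11.39, 11.15 and 10.97 in FF cells. Each FS array was below every FF array of the same treatment, and SLC7A3 fell by 1.20 with DMSO (SE 0.24, adjusted p = 0.00699) and differed by -1.22 (SE 0.24, adjusted p = 0.00575) with the inhibitor. SLC7A1, the widely expressed arginine carrier, had 12.04, 12.12 and 11.44 in FS cells, against 12.21, 12.47 and 12.44 in FF cells, and its difference of -0.51 (SE 0.26, adjusted p = 0.122) did not pass. SLC7A2, an arginine carrier of liver and macrophages, had 8.62, 8.47 and 7.48 in FS cells and 9.26, 9.03 and 9.43 in FF cells with the inhibitor and was called there, at -1.05 (SE 0.30, adjusted p = 0.0188), but not with DMSO, at -0.39 (SE 0.30, adjusted p = 0.271). The difference between these 2 feeder effects is the inhibitor interaction, in which 0 of the 35 genes were called. The other 2 probe sets of SLC7A2 ran the other way with the inhibitor, at 0.56 and 0.34, and with all 3 averaged the difference was -0.049 (adjusted p = 0.729). SLC7A4 and SLC7A14 were not called.

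SLC36A4, a relative of the lysosomal carrier SLC36A1, had 7.53, 6.79 and 6.84 in FS cells, against 8.20, 7.54 and 8.29 in FF cells. With the inhibitor it had 7.61, 7.05 and 6.23 in FS cells and 8.16, 7.69 and 8.21 in FF cells. Each FS array was below every FF array of the same treatment, though H1 with feeders and H9 without were nearly level. Its differences were -0.96 (SE 0.28, adjusted p = 0.025) and -1.06 (SE 0.28, adjusted p = 0.0159). SLC36A1 was not called (-0.59, SE 0.22, adjusted p = 0.053), and its second probe set ran the other way, at 1.15. SLC43A3, known as a purine nucleobase carrier although its family is named for amino acids, had 8.20, 7.91 and 7.65 in FS cells, against 8.86, 8.87 and 8.72 in FF cells. Its groups were apart and it differed by -0.90 (SE 0.18, adjusted p = 0.00734) with DMSO and -0.65 (SE 0.18, adjusted p = 0.0178) with the inhibitor. The neutral carriers SLC43A1 and SLC43A2 were not called.

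**Figure D2:**
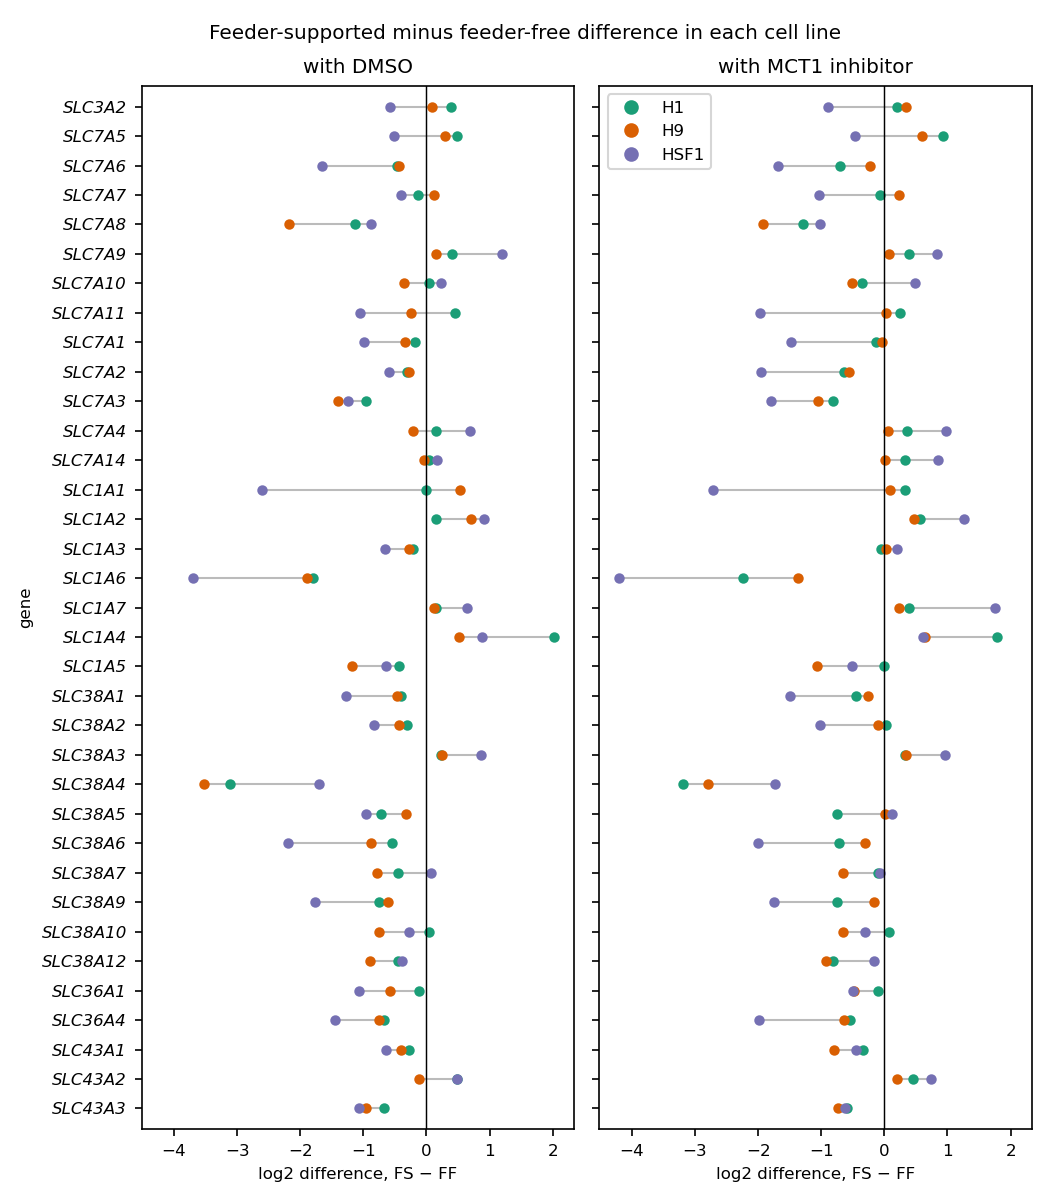
Difference FS minus FF (horizontal axis, log2) of the 35 tested transporter genes in each line, with DMSO (left) and with the MCT1 inhibitor (right). Each point is 1 line and grey bars span the 3 lines. HSF1 is farthest from 0 for many genes, as for SLC1A1 at -2.60 with DMSO, and lies on the other side of 0 from H1 for SLC3A2, SLC7A5 and SLC7A11.

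These counts depended on single lines and on scaling. Of the 16 calls in each comparison, only that of SLC38A4 held in all 11 other settings, and it passed the filter only through FF cells. In each comparison SLC1A6 lost its call in 1 of the 11, SLC1A4 in 2, SLC38A6 in 5 and SLC7A6 in 6. SLC38A9 lost it in 5 with DMSO and in 6 with the inhibitor. Without H1, 2 genes were called with DMSO and 3 with the inhibitor, and without H9, 2 and 7. When 1 line was left out, calls among all genes ran from 358 to 6387 with DMSO and from 787 to 6545 with the inhibitor. Over all the other settings they ran from 351 to 11360 and from 749 to 12282. Transporter counts under these settings therefore cannot be read as more or fewer than among all genes. With the ACTB 3′ minus 5′ signal, a measure of RNA integrity, as a covariate, 2 and 3 were called. This signal was 0.80, 0.56 and -0.15 in FS cells with DMSO, against 1.00, 1.00 and 0.65 in FF cells. With the inhibitor it was 1.19, 0.44 and -0.31, against 1.17, 0.91 and 0.47. It was lower with feeders in H9 and HSF1 under both treatments. The covariate thus runs partly with culture system, and that fit cannot tell them apart. Quantile normalization of the 12 arrays, which gives every array the same spread, moved the median of all genes to 0.00852 and 0.0118 and called 6 transporter genes with DMSO (1 higher, 5 lower) and 7 with the inhibitor (3 higher, 4 lower). SLC7A5 was among the higher, at 0.71 (SE 0.13, adjusted p = 0.00788). The 6 with DMSO were SLC1A6, SLC7A3, SLC38A1 and SLC38A2, lower, SLC1A4, higher, and SLC38A4, which counts as lower but passed the low-value filter only through FF cells. Among the 88 probe sets of the 37 genes, 30 of 40 with a mean below log2 6.5 were higher in FS cells with DMSO (median 0.307) and 40 of 48 at or above it were lower (median -0.585), as for all named probe sets (medians 0.279 and -0.454). The part of this level dependence, of fibroblast RNA and of the HSF1 arrays in the feeder differences was not tested beyond these values.

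**Figure D3:**
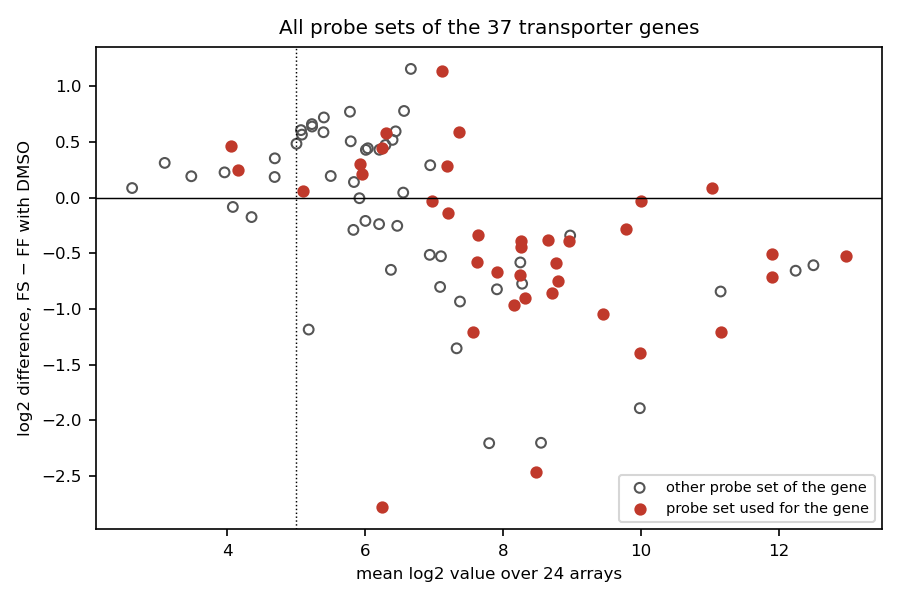
Difference FS minus FF with DMSO (vertical axis, log2) of all 88 probe sets of the 37 transporter genes against their mean over 24 arrays (horizontal axis, log2). Filled points are the probe set used for a gene, open points its others, and the dotted line marks log2 5. Probe sets of low mean lie mostly above 0 and those of high mean mostly below it.

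Genes around these carriers were followed as 5 lists, and of all genes 24.1% fell and 15.2% rose in FS cells with DMSO. Of 17 tested other amino acid carriers, 2 rose and 4 fell in FS cells with DMSO, led by CTNS, the lysosomal cystine exporter, at -0.97 (adjusted p = 0.00513), SLC15A4, a lysosomal peptide and histidine carrier, at -1.05 (adjusted p = 0.0151), the proline carrier SLC6A20 at 0.74 (adjusted p = 0.0174) and SLC6A17 at 0.88 (adjusted p = 0.023). Of 32 tested genes of amino acid sensing at the lysosome, 11 fell and 0 rose, led by AKT1S1 at -1.26 (adjusted p = 0.0104), the Rag GTPase RRAGD at -1.36 (adjusted p = 0.0107), the kinase MTOR at -0.91 (adjusted p = 0.0128) and its partner MLST8 at -0.75 (adjusted p = 0.0153). Of 12 genes of cystine use and glutathione, 3 fell and 0 rose: the heme oxygenase HMOX1 at -1.74 (adjusted p = 0.0056), CBS, which makes cystathionine, at -1.03 (adjusted p = 0.00633) and GCLC, the catalytic subunit of glutathione synthesis, at -0.95 (adjusted p = 0.0328). Of 24 amino acid and integrated stress response genes, 2 rose and 4 fell, led by NUPR1 at 0.77 (adjusted p = 0.0132), the serine synthesis enzyme PHGDH at -0.72 (adjusted p = 0.0184), DDIT3 at 0.77 (adjusted p = 0.0259) and ALDH18A1, which starts proline synthesis, at -0.94 (adjusted p = 0.0275). Of 13 tested glutamine, glutamate and branched-chain enzymes, 5 fell and 0 rose, led by PPAT at -1.20 (adjusted p = 0.0179), BCAT2 at -0.92 (adjusted p = 0.0187), BCKDHB at -1.02 (adjusted p = 0.0208) and the glutamine synthetase GLUL at -0.59 (adjusted p = 0.0373). With the inhibitor the 5 lists, in this order, had 3, 0, 0, 1 and 0 genes that rose and 4, 12, 3, 4 and 8 that fell, where 19.3% of all genes rose and 27.8% fell.

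With the MCT1 inhibitor none of the 35 transporter genes was called in the fit with line as a block, and up to 9 were in the fit that pairs the cultures of a line within each culture system. Shares of all genes called are given only for the fit with line as a block. With line as a block, limma called 0 as the mean over FS and FF cultures, 0 in FS, 0 in FF and 0 for the difference between the 2 culture systems, where 0.639% (0.47% higher, 0.168% lower), 0.00581%, 0.842% and 0.0174% of all genes were called. Tested probe set by probe set, 0 were called in each, where 0.287%, 0.00299%, 0.602% and 0% of all probe sets were. At an unadjusted p below 0.05 the counts of transporter genes were 3, 1, 3 and 0. Medians were -0.034 as the mean and 0.00711 and -0.0462 in FS and FF, against -0.00376, 0.0107 and -0.0136 over all genes. In FS cells the groups overlapped for all 35 genes, where 2.02% of all genes tested did not, and in FF cells they did not overlap for 8, against 22.6%.

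Several carriers were lower in each of the 6 pairs of inhibitor and DMSO cultures. How many of all genes had the same sign in 6 of 6 pairs was not counted, so these signs are a description. SLC7A3 had 10.57, 10.11 and 9.17 with the inhibitor, against 11.04, 10.17 and 10.41 with DMSO, in FS cells, and 11.39, 11.15 and 10.97 against 11.996, 11.58 and 11.66 in FF cells. SLC38A2 had 12.77, 12.54 and 11.95 against 12.84, 12.75 and 12.43 in FS cells, and 12.74, 12.64 and 12.97 against 13.15, 13.19 and 13.26 in FF cells. SLC38A1 had 11.66, 11.67 and 10.48 against 11.86, 11.88 and 11.07 in FS cells, and 12.12, 11.93 and 11.97 against 12.26, 12.34 and 12.35 in FF cells. For SLC38A1, SLC38A2, SLC38A9, SLC7A1 and SLC7A3 the FF groups did not overlap and the FS groups did. SLC7A1 had 11.93, 12.04 and 10.66 against 12.04, 12.12 and 11.44 in FS cells, and 12.06, 12.07 and 12.15 against 12.21, 12.47 and 12.44 in FF cells. SLC38A9 was also lower in 6 of 6 pairs, and SLC38A6 and SLC7A7, an exporter of cationic amino acids, were higher in 6 of 6. Mean differences were -0.58 (SE 0.17, adjusted p = 0.223) for SLC7A3, -0.33 (SE 0.13, adjusted p = 0.457) for SLC38A2, -0.32 (SE 0.17, adjusted p = 0.73) for SLC38A1 and -0.30 (SE 0.18, adjusted p = 0.836) for SLC7A1. None passed in this fit, and all 4 passed with the pairs as a block.

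The inhibitor and DMSO cultures of a line are paired within each culture system, and the fit with that pair as a block gave other counts. It called 9 of the 35 genes as the mean, 2 higher and 7 lower, 6 in FF cells, all lower, and 0 in FS cells. SLC7A3 then differed by -0.58 (SE 0.11, adjusted p = 0.0034), SLC38A2 by -0.33 (SE 0.053, adjusted p = 0.00109), SLC38A1 by -0.32 (SE 0.061, adjusted p = 0.00347), SLC38A9 by -0.35 (SE 0.072, adjusted p = 0.00596) and SLC7A1 by -0.30 (SE 0.078, adjusted p = 0.0199). The other 4 called as the mean were SLC38A6 at 0.36 (SE 0.087, adjusted p = 0.014), SLC1A3 at -0.29 (SE 0.087, adjusted p = 0.0376), SLC1A1 at 0.36 (SE 0.11, adjusted p = 0.0478) and SLC38A7 at -0.28 (SE 0.089, adjusted p = 0.0487). In FF cells SLC7A5 was among the 6, at -0.31 (SE 0.081, adjusted p = 0.0213). Without the FS arrays of HSF1 the fit with line as a block called 4 genes as the mean and 6 in FF cells, and without HSF1 altogether it called 1 and 1. The shares of all genes called in each of these settings are not given here. These transporter counts therefore cannot be read as more or fewer than among all genes. Over the settings tried, calls among all genes ran from 2 to 5888 as the mean and from 3 to 2413 in FF cells.

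The other carriers followed by name did not share 1 direction. SLC3A2 had 10.66, 10.87 and 9.49 with the inhibitor and 11.02, 10.59 and 9.72 with DMSO in FS cells, and 10.45, 10.52 and 10.39 with the inhibitor and 10.63, 10.50 and 10.30 with DMSO in FF cells. SLC7A5 had 11.65, 11.60 and 11.14 with the inhibitor and 12.15, 11.79 and 11.38 with DMSO in FF cells. SLC7A11 had 10.41, 10.47 and 10.70 with the inhibitor and 10.19, 10.71 and 10.62 with DMSO there. Their FF groups overlapped. With line as a block, mean differences over both cultures, with 95% intervals, were -0.065 (-0.48 to 0.35) for SLC3A2, -0.18 (-0.57 to 0.22) for SLC7A5, -0.12 (-0.73 to 0.48) for SLC7A11 and 0.072 (-0.30 to 0.45) for SLC1A5. Of the 5 gene lists named above, 0 genes were called in any inhibitor comparison with line as a block. In that fit 0.639%, 0.00581%, 0.842% and 0.0174% of all genes were called as the mean, in FS, in FF and for the interaction. The lists were not followed in the fit that pairs cultures within a culture system.

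With conditioned medium, 15 of the transporter genes were called in HSF1 cells and 6 in H9 cells. In HSF1 cells 11 of 35 fell and 4 rose (42.9%), where 18.3% of all 16572 genes tested were called (9.78% lower, 8.57% higher). In H9 cells 5 fell and 1 rose (17.1%), near the 16.4% of all genes (13% lower, 3.45% higher). With quantile normalization 3 fell and 3 rose in H9. Medians were -0.0612 in HSF1 and -0.0777 in H9 cells, against 0.029 and -0.0269 over all genes. The groups did not overlap for 24 genes in HSF1, where 42.8% of all genes did not, and for 10 in H9, against 29.1%. The medium effect differed between lines for 7 genes (20%), 4 positive and 3 negative as H9 minus HSF1, where 7.73% of all genes were called (2.08% positive, 5.65% negative), and with quantile normalization 6 were positive and 2 negative. Tested probe set by probe set, 10 of 78 were called in H9, 20 in HSF1 and 10 for the difference between lines. Of all probe sets, 12.3%, 13.5% and 5.56% were called. The called probe sets belonged to 9, 15 and 8 genes. SLC1A3, SLC43A3 and SLC7A1 fell in both lines, 50% of the H9 calls and 20% of the HSF1 calls.

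The heavy chain and the cystine exchanger fell in HSF1 cells. SLC3A2 had 9.08, 9.12 and 9.04 in CM, against 9.62, 9.60 and 9.63 in UM in HSF1, and 9.84, 9.81 and 9.75 in CM, against 9.87, 9.75 and 9.80 in UM in H9. The HSF1 groups were far apart relative to their spread, and the H9 groups overlapped. The differences were -0.53 (SE 0.062, adjusted p = 1.70e-05) in HSF1 and -0.0050 (SE 0.062, adjusted p = 0.963) in H9. SLC7A11 had 8.53, 8.33 and 8.71 in CM, against 9.26, 9.21 and 9.33 in UM in HSF1, and 9.65, 9.34 and 9.38 in CM, against 9.77, 9.82 and 9.55 in UM in H9. The HSF1 groups were apart and the H9 groups overlapped. It fell by 0.74 in HSF1 (SE 0.11, adjusted p = 0.000114), while the H9 difference was -0.26 (SE 0.11, adjusted p = 0.103). The difference between the 2 lines' effects passed for SLC3A2 (0.53, SE 0.088, adjusted p = 0.00262, H9 minus HSF1) and not for SLC7A11 (0.48, SE 0.15, adjusted p = 0.0573).

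SLC7A5 moved apart from its heavy chain. It had 11.21, 11.16 and 11.28 in CM, against 11.01, 10.59 and 10.44 in UM in H9, and 9.75, 9.73 and 9.72 in CM, against 9.65, 9.62 and 9.63 in UM in HSF1. It rose in H9 by 0.54 (SE 0.10, adjusted p = 0.00233), and its HSF1 difference was 0.10 (SE 0.10, adjusted p = 0.551), with a difference between lines of 0.44 (SE 0.15, adjusted p = 0.0775). H9 replicates 2 and 3 in UM, which were lowest, had ACTB 3′ minus 5′ signals of 3.25 and 2.89, against 1.07 in UM replicate 1 and 1.42 to 1.84 in CM, where a higher value goes with lower RNA integrity. Without both, a setting chosen after the data were seen, SLC7A5 was not called and H9 kept 2 called transporter genes, SLC1A3 and SLC43A3. Without UM replicate 1 instead, 11 were called. The part of RNA quality in the H9 result was not tested further.

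The light chains SLC7A7 and SLC7A8 and the carriers SLC43A1 and SLC43A3 also fell in HSF1. SLC7A8 had 10.002, 9.93 and 9.90 in CM, against 10.57, 10.53 and 10.56 in UM, a difference of -0.61 (SE 0.071, adjusted p = 1.64e-05), and 9.93, 9.91 and 10.05 in CM, against 10.08, 10.01 and 10.25 in UM in H9, where groups overlapped (-0.15, SE 0.071, adjusted p = 0.157). SLC7A7 differed by -0.31 (SE 0.075, adjusted p = 0.00772) in HSF1. SLC43A1 (LAT3), a carrier of branched-chain amino acids, had 7.93, 7.97 and 7.94 in CM, against 8.49, 8.59 and 8.51 in UM in HSF1, and 8.10, 8.13 and 8.28 in CM, against 8.36, 8.24 and 8.24 in UM in H9, with differences of -0.59 (SE 0.074, adjusted p = 3.41e-05) and -0.11 (SE 0.074, adjusted p = 0.332). The HSF1 groups of SLC7A8 and SLC43A1 were far apart relative to their spread. SLC43A3 fell in both lines, with 7.96, 7.96 and 7.87 in CM, against 8.46, 8.43 and 8.42 in UM in HSF1, and 8.28, 7.998 and 8.09 in CM, against 8.66, 8.73 and 8.64 in UM in H9. Its differences were -0.51 (SE 0.078, adjusted p = 0.000243) and -0.55 (SE 0.078, adjusted p = 0.000182), and no group overlapped its counterpart.

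The glutamate carrier SLC1A3 had the largest medium difference of the 35 genes in H9. It had 8.61, 8.29 and 8.30 in CM, against 9.41, 9.75 and 9.43 in UM in H9, and 9.001, 8.91 and 8.86 in CM, against 9.82, 9.72 and 9.68 in UM in HSF1. All CM values were below all UM values of the same line. It fell by 1.13 in H9 (SE 0.10, adjusted p = 2.24e-06) and by 0.82 in HSF1 (SE 0.10, adjusted p = 3.04e-05), and stayed called in both lines under all 20 other settings. The other 4 tested glutamate carriers and both neutral SLC1 carriers were not called in either line. SLC1A5 had 8.52, 8.74 and 8.72 in CM, against 8.67, 8.23 and 8.41 in UM in H9, and 8.56, 8.52 and 8.52 in CM, against 8.66, 8.72 and 8.59 in UM in HSF1, with differences of 0.22 (SE 0.097, adjusted p = 0.127) and -0.12 (SE 0.097, adjusted p = 0.45).

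In the SNAT family, SLC38A6 had the largest difference between the lines of the 7 genes called for one. It had 7.07, 7.31 and 7.03 in CM, against 8.26, 8.15 and 8.32 in UM in HSF1, and 7.80, 7.77 and 7.78 in CM, against 7.95, 7.94 and 8.07 in UM in H9. The groups were apart in both lines, but the differences were -1.11 (SE 0.084, adjusted p = 1.24e-07) in HSF1 and -0.20 (SE 0.084, adjusted p = 0.111) in H9, and the lines differed by 0.91 (SE 0.12, adjusted p = 0.000387). SLC38A5 had 7.60, 7.67 and 7.68 in CM, against 8.10, 8.21 and 8.19 in UM in HSF1 and fell by 0.52 (SE 0.13, adjusted p = 0.0101). SLC38A1 had 11.77, 11.90 and 11.86 in CM, against 12.10, 12.05 and 12.05 in UM in HSF1, and 12.05, 12.01 and 11.84 in CM, against 12.002, 12.22 and 12.17 in UM in H9, with differences of -0.23 (SE 0.068, adjusted p = 0.028) and -0.16 (SE 0.068, adjusted p = 0.114). The other probe sets of SLC38A1, with means of log2 11.15, 8.27 and 5.23, differed by 0.0071, 1.01 and 0.015 in H9. In HSF1 they differed by -0.13, -0.36 and 0.38. SLC38A2 had 13.33, 13.23 and 13.29 in CM, against 13.19, 13.09 and 13.09 in UM in HSF1, and 13.22, 13.17 and 12.99 in CM, against 13.09, 13.34 and 13.18 in UM in H9, and was called in neither, with differences of 0.16 (SE 0.067, adjusted p = 0.112) and -0.078 (SE 0.067, adjusted p = 0.439). In H9, SLC38A12 had 7.77, 7.86 and 7.70 in CM, against 7.84, 8.24 and 8.23 in UM and a difference of -0.33 (SE 0.098, adjusted p = 0.0326). SLC38A4 had 7.93, 7.995 and 7.64 in CM, against 8.03, 8.36 and 8.42 in UM in H9 and a difference of -0.41 (SE 0.14, adjusted p = 0.0499). Groups overlapped for SLC38A12 and not for SLC38A4. Of the 20 other settings, 7 ended the call of SLC38A12 and 15 that of SLC38A4, quantile normalization among them for both.

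The cationic and SLC36 carriers included the 4 that rose in HSF1. SLC7A2 had 9.62, 9.60 and 9.61 in CM, against 9.06, 9.14 and 9.13 in UM in HSF1, and 9.32, 9.12 and 9.17 in CM, against 9.10, 9.21 and 9.44 in UM in H9, with differences of 0.50 (SE 0.084, adjusted p = 0.000539) and -0.049 (SE 0.084, adjusted p = 0.712). Its call was lost when its 3 probe sets were averaged. SLC7A3 had 11.62, 11.63 and 11.59 in CM, against 11.37, 11.44 and 11.40 in UM in HSF1, and 11.24, 11.36 and 11.39 in CM, against 11.50, 11.40 and 11.47 in UM in H9, and rose in HSF1 by 0.21 (SE 0.057, adjusted p = 0.0163), against -0.13 (SE 0.057, adjusted p = 0.131) in H9. SLC36A4 had 9.12, 9.04 and 9.26 in CM, against 8.81, 8.85 and 8.76 in UM in HSF1 and SLC36A1 9.15, 9.32 and 9.24 in CM, against 9.004, 9.05 and 8.96 in UM, and they rose by 0.33 (SE 0.096, adjusted p = 0.0236) and 0.23 (SE 0.072, adjusted p = 0.0328). SLC7A1 fell in both lines, with 11.54, 11.45 and 11.52 in CM, against 11.80, 11.80 and 11.83 in UM in HSF1, and 11.95, 11.83 and 11.82 in CM, against 12.09, 12.11 and 12.21 in UM in H9. Its differences were -0.31 (SE 0.057, adjusted p = 0.00111) and -0.27 (SE 0.057, adjusted p = 0.0042). Both calls were lost when its 5 probe sets were averaged, and the H9 difference was then 0.063. The other 17 tested genes were called in neither line, with differences of -0.17 (SLC38A10) to 0.30 (SLC1A2) in H9 and -0.18 (SLC43A2) to 0.25 (SLC7A10) in HSF1.

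**Figure D4:**
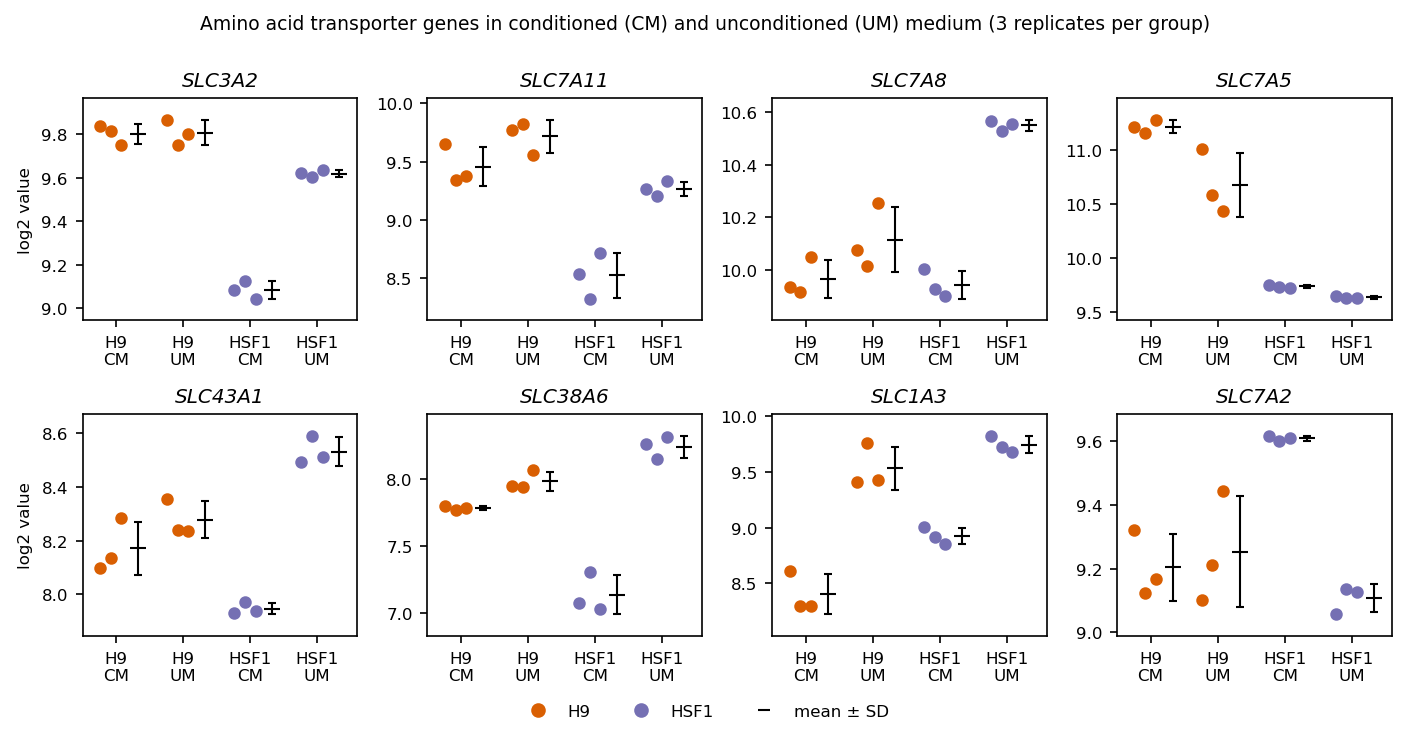
Log2 value (vertical axis, own range in each panel) of 8 transporter genes in conditioned (CM) and unconditioned (UM) medium in H9 and HSF1 cells. Points are single replicates, and bars are mean ± SD of 3. CM values of SLC3A2, SLC7A11, SLC7A8, SLC43A1 and SLC38A6 lie below UM values in HSF1, those of SLC1A3 do so in both lines, SLC7A2 is higher in CM in HSF1, and SLC7A5 is higher in CM in H9.

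Of all genes tested, conditioned medium had 9.78% lower and 8.57% higher in HSF1, and 13% lower and 3.45% higher in H9, and the lists around the carriers stood as follows. Of 12 genes of cystine use and glutathione, 5 fell and 0 rose (median -0.231): HMOX1 at -1.44 (adjusted p = 4.97e-08), the quinone reductase NQO1 at -0.84 (adjusted p = 2.04e-05), the thioredoxin reductase TXNRD1 at -0.31 (adjusted p = 0.00608), and CTH, which makes cysteine, at -0.29 (adjusted p = 0.011) led them. In H9, 4 of the 12 fell and 1 rose, led by SRXN1 at -0.33 (adjusted p = 0.00172), CBS at 0.31 (adjusted p = 0.00782), CTH at -0.27 (adjusted p = 0.0182) and HMOX1 at -0.36 (adjusted p = 0.0241). Of 24 amino acid and integrated stress response genes, 2 rose and 6 fell in HSF1, led by DDIT4, an inhibitor of mTORC1 signalling, at 0.75 (adjusted p = 1.22e-05), the lipoprotein receptor VLDLR at 0.66 (adjusted p = 4.67e-05), the response's main transcription factor ATF4 at -0.31 (adjusted p = 0.00144) and CEBPB at -0.32 (adjusted p = 0.00194). In H9, 2 rose and 7 fell, led by STC2 at -0.57 (adjusted p = 0.000113), DDIT4 at 0.58 (adjusted p = 0.000252), VLDLR at 0.44 (adjusted p = 0.00237) and the asparagine synthetase ASNS at -0.34 (adjusted p = 0.00344).

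Against the same shares of all genes, of 32 genes of amino acid sensing at the lysosome, 3 fell and 0 rose in HSF1, namely RRAGD at -0.67 (adjusted p = 2.47e-06), LAMTOR3 at -0.34 (adjusted p = 0.00474) and FNIP2 at -0.30 (adjusted p = 0.0267). In H9, 4 fell and 1 rose, led by SESN1 at -0.63 (adjusted p = 0.000115), the leucine sensor SESN2 at -0.30 (adjusted p = 0.0147), MIOS at -0.31 (adjusted p = 0.0295) and MTOR at -0.28 (adjusted p = 0.0384). Of 17 other carriers, 3 rose and 2 fell in HSF1, led by the aromatic amino acid carrier SLC16A10 at 0.71 (adjusted p = 9.14e-06), SLC25A44 at 0.40 (adjusted p = 0.000174), the mitochondrial aspartate and glutamate carrier SLC25A12 at -0.27 (adjusted p = 0.0173) and the taurine carrier SLC6A6 at 0.21 (adjusted p = 0.0261). In H9, 2 rose and 3 fell, led by SLC25A18 at -0.70 (adjusted p = 0.000718), SLC25A12 at -0.36 (adjusted p = 0.00349), SLC16A10 at 0.32 (adjusted p = 0.0117) and SLC25A13 at -0.31 (adjusted p = 0.0165). Of 13 glutamine, glutamate and branched-chain enzymes, GLUL rose (0.41, adjusted p = 0.0026) and ASNS fell (-0.25, adjusted p = 0.0181) in HSF1, and 3 fell in H9, ASNS at -0.34 (adjusted p = 0.00344), GOT2 at -0.24 (adjusted p = 0.0236) and BCAT2 at -0.29 (adjusted p = 0.0264). Fibroblast genes summed to log2 12.5 to 12.6 in CM and 13.1 to 13.2 in UM in HSF1, where 3 of 15 tested fell and 0 rose, and to log2 12.9 to 13.1 and 13.0 to 13.2 in H9, where 5 fell and 2 rose. These cultures were feeder-free, and how the listed fibroblast genes relate to the other differences was not tested.

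**Figure D5:**
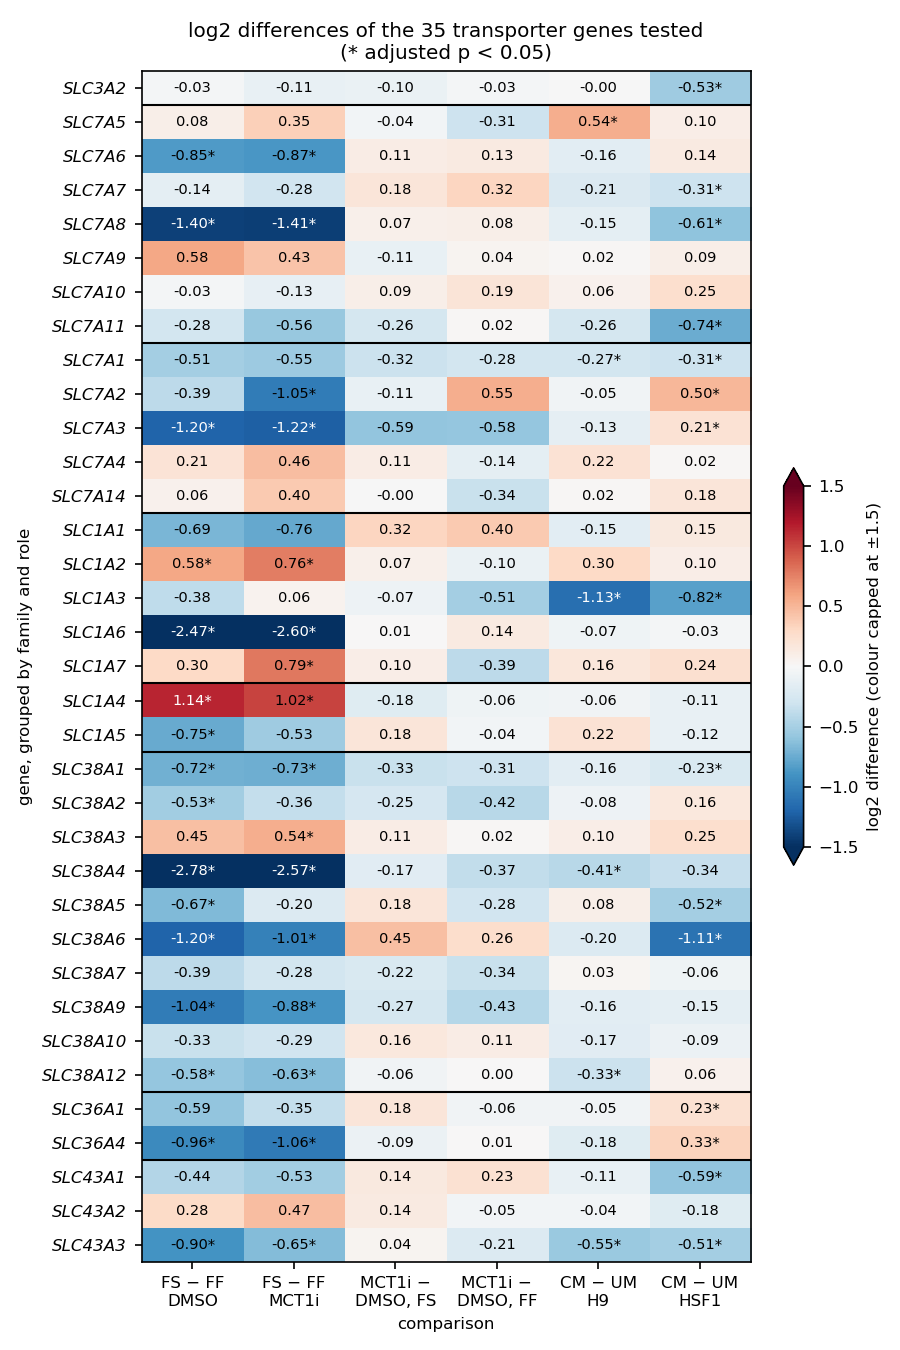
Log2 difference (colour and number) of the 35 tested transporter genes, grouped by family and role (rows), in 6 comparisons (columns). Asterisks mark adjusted p below 0.05. Most starred values stand in the 2 feeder columns and in the HSF1 medium column, and none stands in the 2 inhibitor columns. Feeder values and asterisks of SLC38A4 are not read as a result, since it passed the low-value filter only through FF cells.

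Levels over all 8 groups are given for 3 carriers as a description. SLC7A5 averaged 11.86 ± 0.90 in FS cells with DMSO, 11.81 ± 1.01 in FS cells with the inhibitor, 11.77 ± 0.38 in FF cells with DMSO and 11.46 ± 0.28 in FF cells with the inhibitor (SD, n = 3 each). It averaged 11.22 ± 0.062 and 10.68 ± 0.30 in CM and UM in H9, and 9.74 ± 0.015 and 9.63 ± 0.011 in HSF1, the lowest of the 8. The other 3 inhibitor-part means lay within 1 SD of that of FS cells with DMSO, and H9 and HSF1 in the medium part did not overlap. SLC38A4 averaged 7.86 ± 0.19 and 8.27 ± 0.21 in CM and UM in H9, 6.65 ± 0.28 and 6.996 ± 0.12 in HSF1, 6.58 ± 1.20 in FF cells with DMSO and 3.80 ± 0.43 in FS cells with DMSO. Its feeder-free values were also lower in HSF1 than in H9, where 5.20 and 7.13 were measured with DMSO. SLC1A3 averaged 9.53 ± 0.20 and 9.74 ± 0.075 in UM in H9 and HSF1, against 7.97 to 8.48 as means of the 4 inhibitor-part groups. Line, medium and the 2 parts of the study cannot be told apart in such comparisons.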

How the data were processed

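Total RNA was labelled with biotin and hybridised to 24 arrays, per the labels' protocols. The authors deposited log2 values made with RMA, per the submitters' processing notes. The RMA version, and whether all arrays were processed at once, were not stated in these sources. Values of 54675 probe sets ran from 2.05 to 14.9. Of these, 41097 name 1 gene in GEO's platform annotation, 1801 several and 11777 none listed.

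A gene was represented by its probe set with the highest mean over the 24 arrays. Testing was limited to genes whose value exceeded log2 5 on 3 or more of a part's 12 arrays, which left 17218 (inhibitor) and 16572 (medium). limma 3.58.1 in R 4.3.3 fitted each part separately with trended empirical Bayes variances and Benjamini-Hochberg adjustment over all tested genes. The inhibitor part had cell line as a block and the medium part had none. In the inhibitor part replicate numbers pair arrays because each number is 1 cell line. The labels call the medium samples biological replicates and do not say what they shared. 9 comparisons were fitted, 2 of them interactions. The fit was tested on simulated data.

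The members and lists were chosen with earlier results of these data known. Values on every array are given for SLC3A2, SLC7A5, SLC7A11, SLC1A5, SLC38A1, SLC38A2, SLC7A1 and SLC7A3, and for called genes up to 8 per comparison and direction by size. Of each list, up to 4 genes with the smallest p per comparison are named. Of the probe sets used, 4 end in _x_at (SLC1A2, SLC1A4, SLC38A2, SLC7A8) and 12 in _s_at, suffixes for probes that can match several transcripts. Alternatives were another normalization, all probe sets averaged, no filter, array weights, other blocks, an RNA quality covariate and leaving out arrays. Precision is limited by the 3 arrays in each group.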

Additional observations from a re-analysis of the deposited data

Results flagged for a closer look

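For 7 transporter genes the response to conditioned medium differed between H9 and HSF1 cells by the fitted interaction, H9 minus HSF1, where 7.73% of all genes tested were called. SLC38A6 (0.91), SLC3A2 (0.53), SLC43A1 (0.48) and SLC7A8 (0.46) were positive, since these genes fell in HSF1 cells and differed by -0.20, -0.0050, -0.11 and -0.15 in H9 cells without being called. SLC7A2 (-0.55), SLC36A4 (-0.51) and SLC7A3 (-0.34) were negative, since they rose in HSF1 cells and differed by -0.049, -0.18 and -0.13 in H9 cells. SLC38A6 and SLC3A2 kept the call under all 20 other settings. SLC43A1 and SLC7A8 lost it in 1 each, SLC7A2 in 2, SLC7A3 in 3 and SLC36A4 in 10 of the 20. With 3 arrays in every group, no single array was tested as an outlier.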

How the results depend on the processing

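The 15 transporter calls for conditioned medium in HSF1 cells numbered 11 to 19 under all 20 other settings. In 9 genes the call held in each of them (SLC1A3, SLC38A5, SLC38A6, SLC3A2, SLC43A1, SLC43A3, SLC7A11, SLC7A7 and SLC7A8). In H9 cells the 6 calls became 11 with array weights, 4 to 11 when 1 array was left out and 2 without UM replicates 2 and 3, while SLC7A1 turned to 0.063 (adjusted p = 0.549) with the mean of all its probe sets. The 7 interaction calls became 16 with array weights, 5 to 15 when 1 array was left out (15 without H9 UM replicate 1) and 4 without UM replicates 2 and 3. For feeders, the 16 calls with DMSO and 16 with the inhibitor became 6 and 7 with quantile normalization, 6 and 7 with no replicate block for line, 2 and 3 with the ACTB 3′ minus 5′ signal as a covariate, and 2 to 16 and 3 to 15 when 1 line was left out. Array weights gave 22 and 24, and testing each probe set on its own gave 22 and 21 genes with at least 1 called probe set. No feeder call changed sign. Except for probe sets tested on their own, shares of all genes called in these settings are not given. Their counts cannot be read as more or fewer than among all genes. For the inhibitor, 0 calls as the mean became 1 with quantile normalization (SLC7A3), 15 with array weights, 9 with the replicate block of line within culture system, 4 without the FS arrays of HSF1 and 0 to 1 when 1 line was left out. The 0 calls in FS cells became 3 with array weights, and the 0 in FF cells became 4 with array weights, 6 with the replicate block, 6 without the FS arrays of HSF1 and 0 to 1 when 1 line was left out. The estimate of array weights for the inhibitor part did not reach its tolerance. Over all genes, the 6772, 8103, 110, 145, 2720 and 3040 calls for FS minus FF with DMSO and with the inhibitor, the inhibitor as the mean and in FF, and CM in H9 and HSF1 ranged over 351 to 11360, 749 to 12282, 2 to 5888, 3 to 2413, 653 to 5286 and 1852 to 4770. Replicate numbers in the medium part did not pair arrays: same-numbered CM and UM deviations correlated at -0.266, 0.132 and -0.101 in H9 and 0.0853, -0.186 and 0.00671 in HSF1, and the replicate block gave 6, 12 and 6 transporter calls for H9, HSF1 and the interaction. Settings without UM replicates 2 and 3 and with each probe set on its own were chosen after seeing the data. Values near log2 5 and below, as for SLC38A4 in FS cells, have no measured background to set them against.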

Other observations

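SLC1A2 is measured by 6 probe sets, and the one with the second highest mean ran apart from the one used above. It had 5.81, 6.70 and 6.04 with the MCT1 inhibitor in FS cells of H1, H9 and HSF1, against 5.59, 6.01 and 4.93 with DMSO, and 6.85, 6.64 and 6.90 against 5.88, 5.60 and 5.77 in FF cells. It was higher with the inhibitor in 6 of 6 pairs, and the FF groups did not overlap. Its mean difference was 0.86 (SE 0.18), with an adjusted p of 0.0879 in limma over all 33411 probe sets tested on their own, so it did not pass. The probe set used for the gene differed by -0.014 as the mean.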
